A study of Mus musculus with 4 samples.

Results

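The interleukin-10 (IL-10) and transforming growth factor beta (TGF-beta) axis was followed here through 6 genes, namely Il10, Il10ra, Il10rb, Tgfb1, Tgfbr1 and Tgfbr2. They were picked by name as the ligands and receptor chains of both pathways, and found on the arrays through the transcript identifiers of the probes. All 6 matched, with 9 probes between them, among 23451 genes that had a value. The cells were bone marrow-derived dendritic cells, which are antigen-presenting cells. They were grown with the growth factor GM-CSF from femur marrow of C57BL/6J males and collected on day 6. All cultures were wild type. Each of 4 groups had its RNA labelled with Cy3 and measured on a single-colour array of its own. The groups were LPS (100 ng/ml) with LA (20 mM), LPS alone (100 ng/ml), LA alone (20 mM) and medium without stimulation. Both agents were given for 4 h, and no time was given for medium. LPS is the bacterial cell wall component that dendritic cells sense through Toll-like receptor 4. The labels write LA as L-(+)-LA, the series title speaks of lactate, and the pH of the LA medium was not given.

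IL-10 is a cytokine that limits inflammatory output of myeloid cells. It binds a receptor of a ligand-specific chain (Il10ra) and a chain shared with other cytokines of the family (Il10rb), and signals through the kinases JAK1 and TYK2 to the transcription factor STAT3. TGF-beta 1 (Tgfb1) is made in a latent form that has to be released before it can bind. It then joins the type II receptor (Tgfbr2) with the type I receptor (Tgfbr1), which phosphorylates SMAD2 and SMAD3. In dendritic cells both cytokines are known for restraining maturation and for favouring tolerance.

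Since each group had 1 array, all differences are between 2 arrays and have neither a test nor a replicate spread. The number of arrays sets the precision. Levels are the processed intensity of the probe divided by the array's 75th percentile, or the log2 of that ratio. The only errors available were technical. The scanner software's own error came to about 0.14 log2 units for a bright spot, and repeated spots of the probes printed 10 times had a median SD of 0.051 to 0.054 log2 units. Different probes of a gene disagreed more, with a median SD of 0.23 log2 units in their differences over 4305 genes and all comparisons. It was 0.31 for LPS with LA against LPS and 0.18 for LPS with LA against LA. A difference of at least 2-fold (1 log2 unit) was counted as higher or lower. A gene is called above background where the software marked its probe well above background. A gene well above background on 1 of 2 arrays has a bound in place of a fold. The bounds printed hold for the processing used here, and were smaller under some alternatives. All 4 arrays lay on 1 slide with 1 scan time, so array position and group cannot be told apart.

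The promoters of both TGF-beta receptor genes are shown because both genes had their lowest level with LPS, and that of their ligand for comparison. They were taken from RefSeq (GRCm38.p6) and run from 250 bases before to 50 bases after the start. Tgfbr1 lies at chr4:47352972-47353271 on the plus strand, Tgfbr2 at chr9:116175314-116175613 on the minus strand and Tgfb1 at chr7:25686752-25687051 on the plus strand. Capitals mark the GC box GGGCGG on either strand. The genes Il10 (chromosome 1), Il10ra (chromosome 9) and Il10rb (chromosome 16) are named only.
Tgfbr1 promoter: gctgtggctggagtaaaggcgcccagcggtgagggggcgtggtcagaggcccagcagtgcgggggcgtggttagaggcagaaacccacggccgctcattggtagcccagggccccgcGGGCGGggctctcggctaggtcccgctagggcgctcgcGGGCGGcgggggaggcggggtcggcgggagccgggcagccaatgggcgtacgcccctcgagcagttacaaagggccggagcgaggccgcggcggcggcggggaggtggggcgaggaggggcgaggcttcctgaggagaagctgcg
Tgfbr2 promoter: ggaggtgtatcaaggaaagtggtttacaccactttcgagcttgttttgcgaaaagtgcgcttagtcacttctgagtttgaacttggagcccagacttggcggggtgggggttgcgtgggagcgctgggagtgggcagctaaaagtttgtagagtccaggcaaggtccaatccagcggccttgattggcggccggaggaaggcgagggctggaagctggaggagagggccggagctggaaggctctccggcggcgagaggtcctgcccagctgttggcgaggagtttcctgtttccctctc
Tgfb1 promoter: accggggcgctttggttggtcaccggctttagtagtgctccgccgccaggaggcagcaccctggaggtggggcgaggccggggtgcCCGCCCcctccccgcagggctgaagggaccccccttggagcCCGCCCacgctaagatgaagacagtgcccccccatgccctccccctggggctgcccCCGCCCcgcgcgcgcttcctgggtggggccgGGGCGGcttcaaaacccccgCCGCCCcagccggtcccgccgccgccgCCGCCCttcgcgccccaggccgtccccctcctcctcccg

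The GC box occurred 2 times in the Tgfbr1 promoter, 0 times in that of Tgfbr2 and 6 times in that of Tgfb1, while 35.7% of all 32851 mouse promoters of this length held at least 1. The letters CCAAT, searched on both strands, were found 2 times each in the promoters of Tgfbr1 and Tgfbr2 and 0 times in that of Tgfb1 (37.4% of all promoters). TATAAA was found in none of the 3 (13.6% of all promoters), nor was TTCNNNGAA (8.30%) or TGACG (20.8%). CAGAC was found 1 time in the Tgfbr2 promoter and not in the other two shown (49.6% of all promoters). The G and C content was 74.7% for Tgfbr1, 59% for Tgfbr2 and 77% for Tgfb1, beside a median of 52.7% over all promoters. A second start of Tgfbr1, at chr4:47385966-47386265, held no GC box.

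Il10 was detected on 1 array, that of LPS alone. Its single probe gave a processed intensity of 6.82 with LPS and LA, 223 with LPS, 2.75 with LA and 3.78 in medium, and the scanner software marked it as clearly above background with LPS alone. As a share of the array's 75th percentile these were 0.0468, 1.28, 0.0174 and 0.0212. The LPS array stood apart, and the other arrays were given no order among them since none was well above background. The level with LPS was at least 19.3-fold above medium and at least 21.3-fold above LA. The level with LPS and LA was at least 21.3-fold below that with LPS. With normexp background correction these bounds shrank to 2.02 log2 units for LPS minus medium and -1.85 for LPS with LA minus LPS. Among genes with an ordinary symbol, 171 were detected with LPS and on no other array. Genes with provisional names, such as Gm-number, LOC and Rik symbols, were left out of this count. By the smallest of its 3 bounds Il10 ranked 7 among the 171. The genes with the most similar bounds, of 170 compared, were Mup-ps16, Ifi214 and Tpbg, at a root mean square distance of 0.074, 0.093 and 0.30 log2 units. Il10 and these genes lay below the lowest detected signal on the other arrays, so the distances compare their levels with LPS only. For genes so dim there, the rank by bound also follows the level with LPS. A likeness over all arrays was not measured for Il10. In these bulk samples fewer cells of a type and less RNA per cell cannot be told apart.

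The IL-10 receptor chains were well above background on all 4 arrays. The brightest probe of Il10ra, the chain that is specific for IL-10, read 1.97 times the 75th percentile with LPS and LA, 3.52 with LPS, 2.06 with LA and 2.81 in medium. Its other probe read 0.659, 1.07, 0.565 and 0.915 on the same arrays. On both probes the arrays with LA lay below those without it, and LPS was the highest. LPS with LA minus LPS was -0.84 ± 0.20 log2 units (software error) on the brightest probe and -0.70 ± 0.21 on the other. LA minus medium was -0.45 ± 0.20 and -0.70 ± 0.21 log2 units. These differences are more than 2 times the software error and under 2-fold. LPS and medium, which neighbour each other in the order, differed by less than 2 software errors (0.32 ± 0.20), as did LPS with LA and LA (-0.06 ± 0.20).

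Il10rb, the shared chain, read 2.57 with LPS and LA, 2.92 with LPS, 2.84 with LA and 2.70 in medium on its 1 probe. The whole span over the arrays was 0.18 log2 units, under 1 software error of a difference, so its levels have no order.

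**Figure D1:**
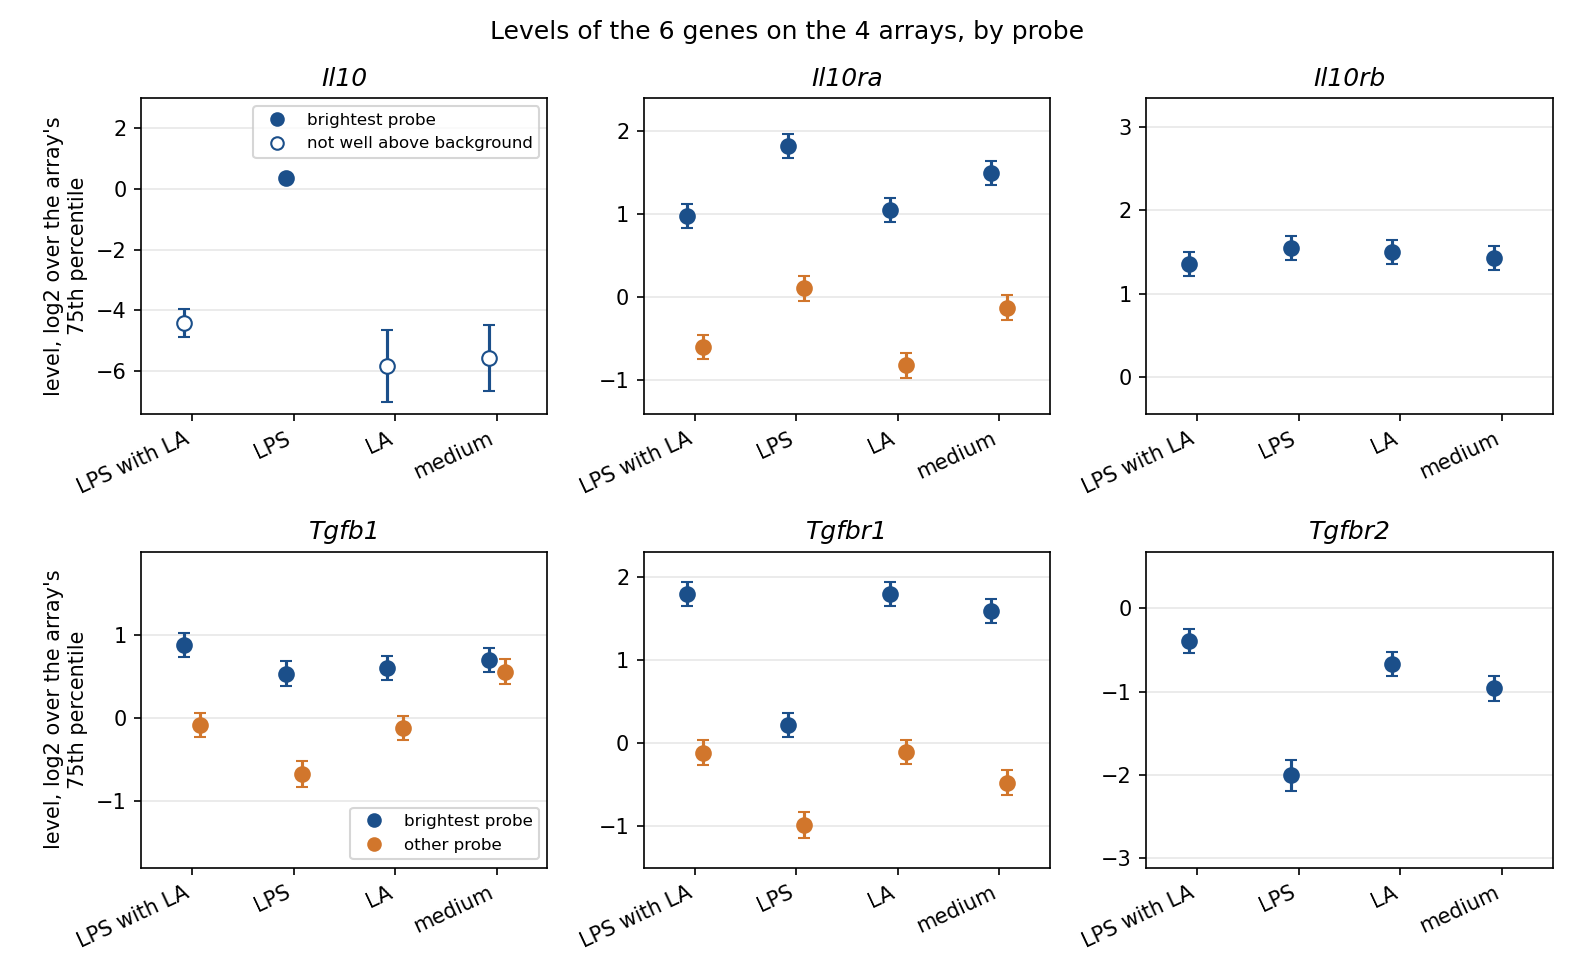
Levels of the 6 genes (vertical axes, log2 of the processed intensity over the array's 75th percentile) on the arrays of LPS with LA, LPS, LA and medium. Each point is 1 probe on 1 array, colours separate the probes of a gene, bars are the software's error of the spot, and open points were not well above background. Il10 is measured with LPS only, Tgfbr1 and Tgfbr2 are lowest with LPS, and Il10rb stays within 0.18 log2 units.

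The probes of Tgfb1, the TGF-beta ligand, disagreed. The brightest read 1.84 with LPS and LA, 1.45 with LPS, 1.52 with LA and 1.62 in medium, a span of 0.35 log2 units in which no array differed from another by 2 software errors. The other probe read 0.943, 0.626, 0.919 and 1.47. There medium was the highest and LPS the lowest, with LPS 2.35-fold below medium (-1.23 ± 0.21 log2 units) where the brightest probe gave -0.16 ± 0.21. On the second probe LPS with LA was 0.59 ± 0.21 log2 units above LPS, and its difference from medium was -0.64 ± 0.21. Both probes are assigned to the same transcript, and which of them follows the gene was not tested.

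The TGF-beta receptors were lowest with LPS. The brightest probe of Tgfbr1, the type I receptor kinase, read 3.46 with LPS and LA, 1.16 with LPS, 3.48 with LA and 3.02 in medium. LPS stood below the other arrays, which spanned 0.20 log2 units. Compared with medium, LPS was 2.60-fold lower (-1.38 ± 0.21 log2 units). Compared with LPS, LPS with LA was 2.98-fold higher (1.58 ± 0.21). The second probe read 0.924, 0.506, 0.928 and 0.719, with LPS again lowest, but its differences were smaller. LPS was 1.42-fold below medium and LPS with LA was 1.83-fold above LPS on that probe. Averaged over both probes, LPS against medium fell short of 2-fold (-0.94 log2 units), and LPS with LA against LPS did not (1.22).

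Tgfbr2, the type II receptor that binds the ligand, read 0.763 with LPS and LA, 0.249 with LPS, 0.630 with LA and 0.514 in medium on its 1 probe. LPS was again lowest. It lay 2.06-fold below medium (-1.05 ± 0.24 log2 units), and LPS with LA lay 3.07-fold above LPS (1.62 ± 0.24). The other 3 arrays followed the order LPS with LA, LA and medium in steps of 0.28 ± 0.21 and 0.30 ± 0.21 log2 units, each under 2 software errors. LPS with LA was 1.49-fold above medium (0.57 ± 0.21). The LPS difference of Tgfbr2 lies at the 2-fold line. It read -0.98 log2 units with median scaling, -0.97 with quantile normalization and -0.45 with normexp background correction. Normexp also took LPS with LA against LPS to 0.95 log2 units.

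Against medium, LPS thus left 1 of the 6 genes at least 2-fold higher (Il10), 2 lower (Tgfbr1, Tgfbr2) and 3 in between. Over all 15637 genes described in that comparison, 9.07% were higher and 8.56% lower by this rule. The Tgfbr1 difference was reached or passed downwards by 617 of 15219 genes with a measured difference or a bound (4.05%), that of Tgfbr2 by 1206 (7.92%), and the Il10 bound upwards by 43 (0.283%). LPS with LA against LPS had 2 of 6 higher (Tgfbr1, Tgfbr2), 1 lower (Il10) and 3 in between, where 12% of 16018 genes were higher and 12.8% lower. Here 648 of 15374 genes were as high as Tgfbr1 (4.21%) and 608 as high as Tgfbr2 (3.95%), and 69 were as low as the Il10 bound (0.449%). These 2 comparisons share the LPS array, on which all 3 genes stood apart.

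No member was 2-fold apart in the comparisons without that array. Il10 had no value in these 3 comparisons, since it was not well above background on either array, which leaves 5 genes. LA against medium had 0 of 5 higher and 0 lower, where 4.4% of all genes were higher and 4.38% lower. LPS with LA against LA had 0 of 5 each way, beside 1.71% higher and 2.71% lower of all genes. LPS with LA against medium had 0 of 5 each way, beside 4.01% higher and 5.04% lower. With 5 genes, 0 calls lie close to what these shares give.

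The LPS difference can be set beside itself in the presence of LA, with no array in common. For Tgfbr1 it was -0.00 ± 0.20 log2 units with LA and -1.38 ± 0.21 without it. For Tgfbr2 it was 0.28 ± 0.21 with LA and -1.05 ± 0.24 without it. Il10ra had -0.06 ± 0.20 with LA and 0.32 ± 0.20 without it, Il10rb -0.14 ± 0.20 and 0.11 ± 0.20, and Tgfb1 0.28 ± 0.20 and -0.16 ± 0.21. On these brightest probes the pair of values differed by more than 1 log2 unit for Tgfbr1 and Tgfbr2 and by less for the other 3 genes. The second probes gave another picture, with a gap of 0.50 log2 units for Tgfbr1 and 1.27 for Tgfb1. Over 13368 genes well above background on all 4 arrays, the median size of the LPS difference was 0.17 log2 units with LA and 0.38 without it, and 220 genes with LA and 2055 without it were at least 2-fold apart.

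**Figure D2:**
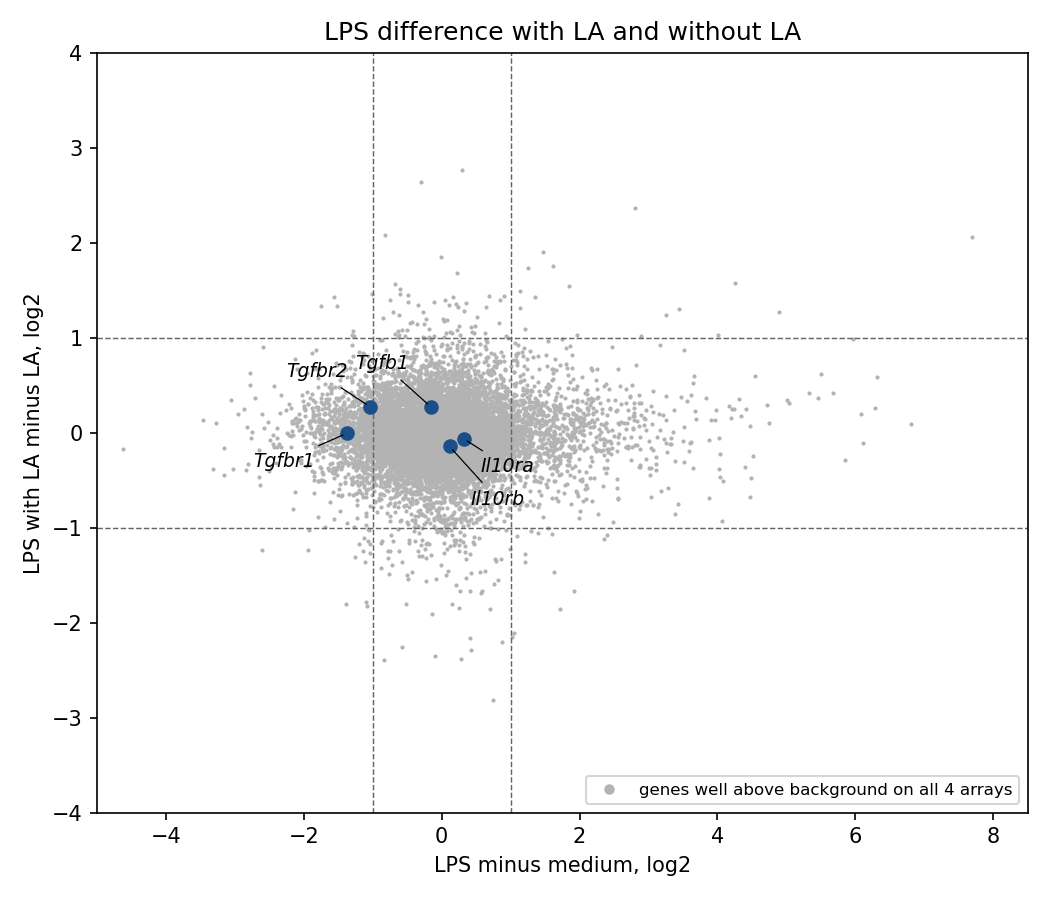
LPS with LA minus LA (vertical axis, log2) against LPS minus medium (horizontal axis, log2) for 13368 genes well above background on all 4 arrays, 1 point per gene, with dashed lines at 2-fold. Tgfbr1 and Tgfbr2 lie left of the 2-fold line without LA and within it with LA, Il10ra, Il10rb and Tgfb1 lie within both, each by its brightest probe, and Il10 has no point because it was measured on 1 array.

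Many genes had levels like those of the TGF-beta receptors. Of 11961 genes compared, 54 had levels within 0.1 log2 units of Tgfbr1 and 68 were as near to Tgfbr2. Nearness was the root mean square difference over the 4 arrays, each gene centred on its mean. The genes compared had an ordinary symbol, as for Il10, and were well above background on all 4 arrays. The nearest to Tgfbr1 were Trappc12, Tars2 and Sec14l1, at 0.029, 0.034 and 0.036 log2 units. The nearest to Tgfbr2 were Tob1, Myo18a and Zfp971, at 0.026, 0.029 and 0.030. Neither receptor was among the 3 nearest of the other, which with 11961 genes compared does not show that the receptors differ.

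**Figure D3:**
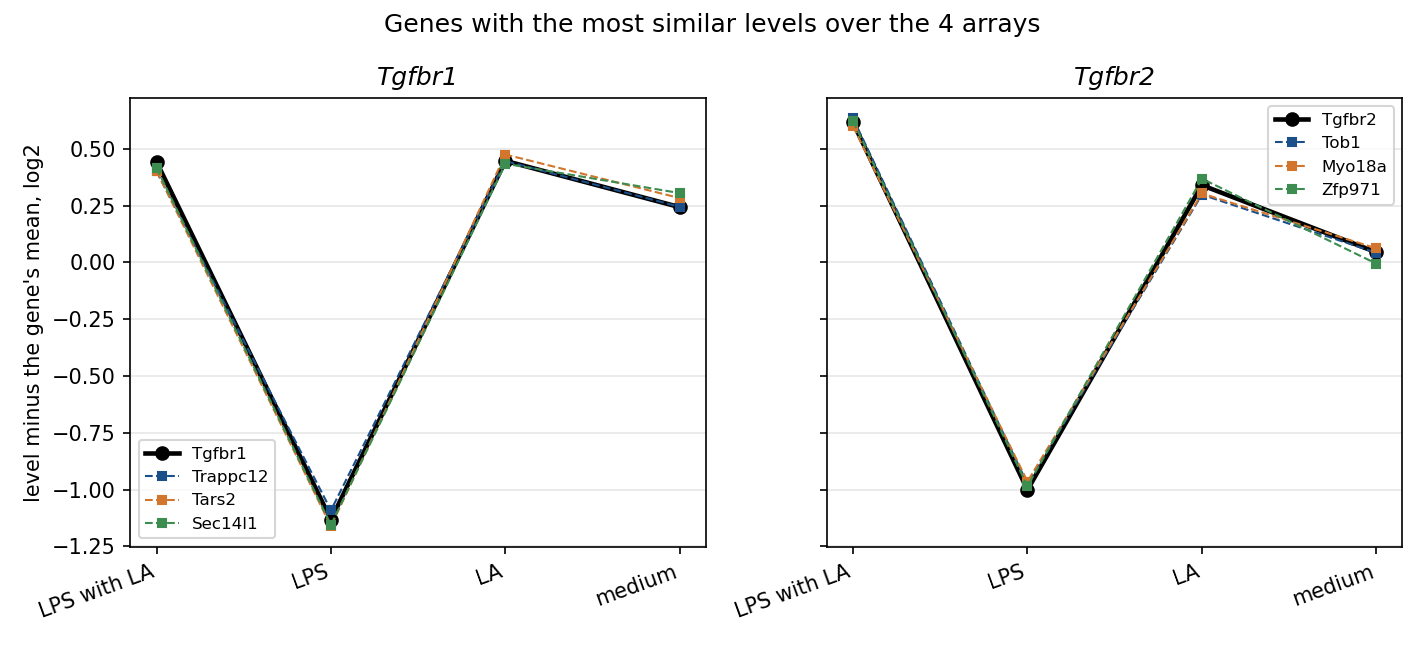
Levels of Tgfbr1 (left) and Tgfbr2 (right) with the 3 genes nearest to each, as log2 level minus the gene's mean over the 4 arrays (vertical axis) on each array (horizontal axis). Lines join the points of a gene to guide the eye, and each group is 1 array. The genes in each panel have their lowest point with LPS.

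Genes around the members were described through 10 lists, several of which share genes (Nfil3, and Pmepa1, Skil, Smad7 and Tgif1). Their counts are to be read beside the shares over all genes. These were 9.07% higher and 8.56% lower for LPS against medium, and 12% and 12.8% for LPS with LA against LPS. For LA against medium they were 4.4% and 4.38%. By their brightest probes, 1 of 7 other IL-10 family cytokines and receptors described was higher with LPS than in medium. It was Il20rb (1.30 log2 units), a receptor chain for IL-19, IL-20 and IL-24. In LPS with LA against LPS 1 of 7 was lower, the cytokine Il19, by at least 2.50-fold. Their median difference was 0.15 for LPS against medium and -0.05 for LPS with LA against LPS, where the medians of all measured genes were 0.0034 for both. Both list medians changed sign under other scalings, and the medians given for the lists below kept their sign under all 8 alternative settings. The probes of Il22ra1, a receptor chain of this list, disagreed. Its brightest gave -0.07 log2 units for LPS minus medium and 0.28 for LPS with LA minus LPS. The other gave 2.10 and -2.14, so the counts of this list depend on the probe taken.

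Of 8 genes of IL-10 receptor signalling, 3 were higher and 0 lower with LPS than in medium (median 0.71). Socs3, the feedback inhibitor that STAT3 induces, was highest with a difference of 5.04 log2 units. Socs1, which inhibits JAK kinases, came next with 4.75 (26.9-fold). Adding LA to LPS left the same 3 lower than LPS alone, Socs3 by 10.2-fold and Socs1 by 8.80-fold, and 0 were higher. LA alone was above medium for both, by 2.85-fold for Socs1 and 2.59-fold for Socs3. Under some alternatives these 2 differences fell below 2-fold, to as little as 0.55 and 0.96 log2 units. Socs1 in medium had a level of -3.37 log2 units, near the lowest detected there (-3.91). The receptor kinases Jak1 and Tyk2 stayed under 2-fold, as did the brightest probe of Stat3. Jak1 had levels of 1.19, 1.69, 0.98 and 1.61 log2 units with LPS and LA, LPS, LA and medium. Tyk2 had 0.35, 0.47, 0.33 and -0.09 on the same arrays, and Stat3 5.67, 6.20, 5.59 and 5.35. The other probe of Stat3 passed 2-fold, with 1.08 log2 units for LPS minus medium and -1.51 for LPS with LA minus LPS. For LPS minus medium, Ptpn11 of this list gave 0.41 on its brightest probe and 1.38 on its other probe.

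IL-10 response genes are those that IL-10 is known to raise in macrophages, and many also answer to other signals. Of 12 described, 5 were higher and 0 lower with LPS than in medium (median 0.36). They were Il1rn, the interleukin-1 receptor antagonist (7.31-fold), Fcgr1, the high-affinity IgG receptor (5.27-fold), and, outside the naming rule, Bcl3 (2.24 log2 units), Zfp36 (1.85) and Etv3 (1.12). Between LPS with LA and LPS, 0 were higher and 9 lower (median -2.07, from -2.18 to -1.65 over the 8 alternative settings, with 9 lower in each). Il1rn was 10.8-fold and Fcgr1 7.13-fold lower. Part of that list was lower with LA alone: 4 of 12 against medium, led by the mTORC1 inhibitor Ddit4 (8.95-fold) and the decoy receptor Il1r2 (4.75-fold), with Hmox1 and Nfil3 at -2.07 and -1.59 log2 units. Cd163, a classical IL-10 response gene, was not above background on any array.

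Among 23 regulators of Il10 transcription, 4 were higher and 1 lower with LPS than in medium. Batf, an AP-1 family factor, was 11.8-fold higher, and Map3k8, the kinase upstream of ERK, at least 5.46-fold. Outside the naming rule, Nfkb1 had 1.91 and Rps6ka4 1.16 log2 units. Crtc3, a CREB coactivator, was 2.42-fold lower. In LPS with LA against LPS 1 was higher, Crtc3 (5.18-fold), and 8 were lower, led by Batf (7.22-fold) and Nfkb1 (3.51-fold). With LPS, Crtc3 had a level of -3.32 log2 units, near the lowest detected on that array (-3.49). Over the alternatives its differences shrank to as little as -0.31 for LPS minus medium and 0.97 for LPS with LA minus LPS. LA alone left Nfil3 3.02-fold and Bhlhe40, a repressor of Il10, 2.67-fold below medium. The factor Maf, also outside the rule, had levels of 1.68, 1.09, 1.75 and 1.92 log2 units with LPS and LA, LPS, LA and medium.

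**Figure D4:**
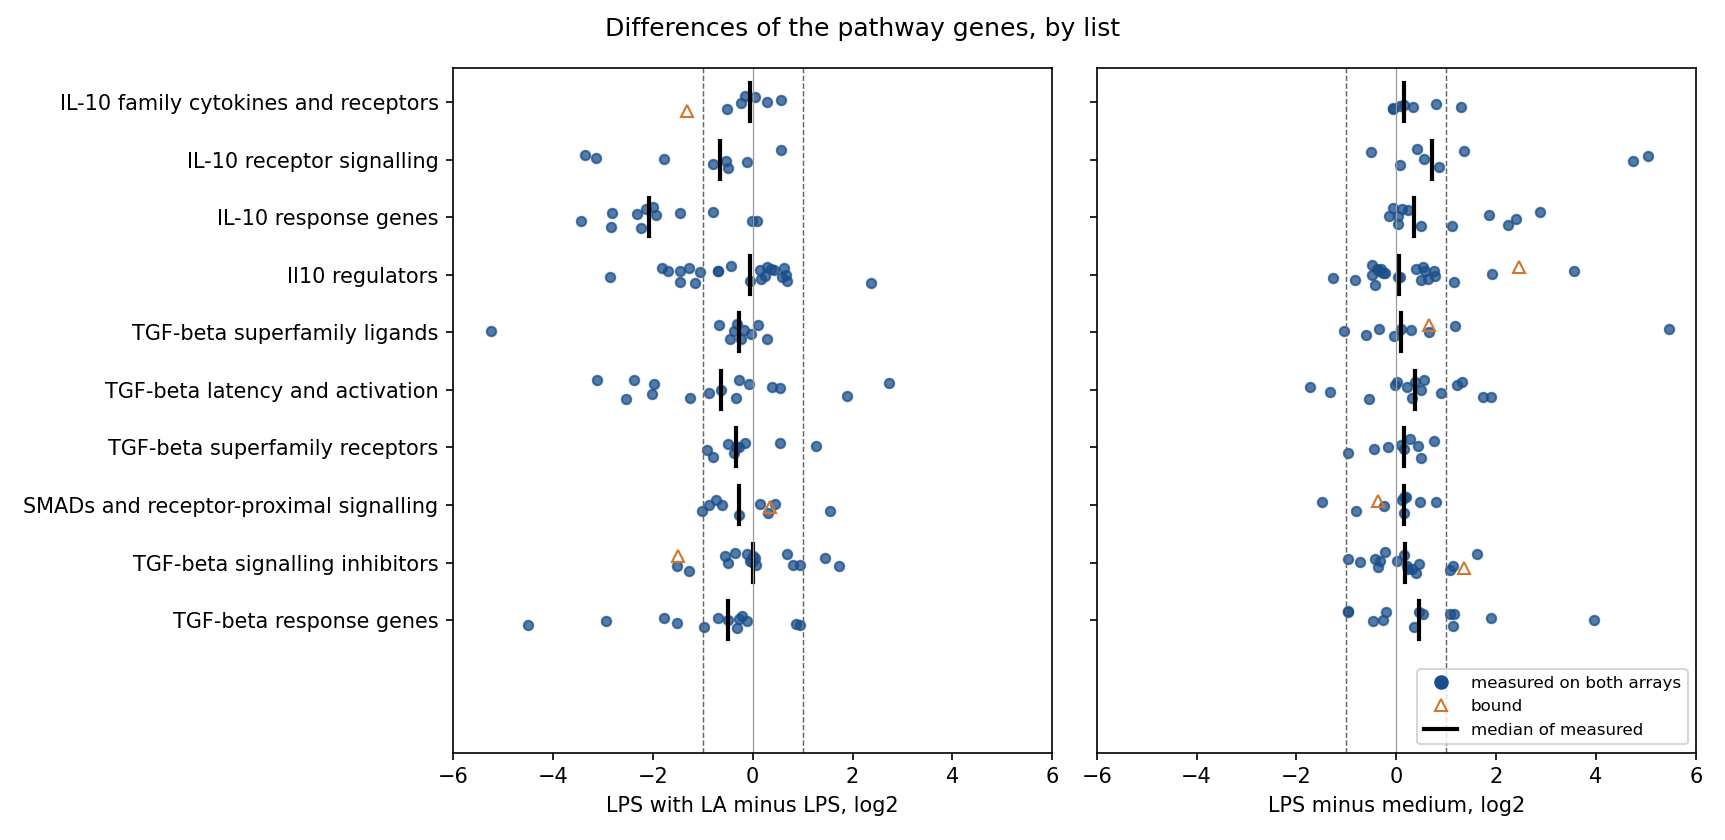
Differences of the pathway genes in log2 units (horizontal axes) for LPS with LA minus LPS (left) and LPS minus medium (right), by list. Circles are genes measured on both arrays, triangles are bounds, black bars are medians of measured genes and dashed lines mark 2-fold. The IL-10 response genes have 9 of 12 points beyond the lower line on the left.

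Of 10 other ligands of the TGF-beta superfamily described, 2 were higher and 1 lower with LPS than in medium. Inhba, which encodes the subunit of activin A, was 44.0-fold higher and Gdf15 was 2.25-fold higher. Tgfb3, a second TGF-beta isoform, was 2.05-fold lower with LPS, 3.05-fold lower with LA and 3.28-fold lower with LPS and LA, each against medium. Relative to LPS, LPS with LA had 0 higher and 1 lower, Inhba by 37.7-fold. Tgfb2 was not above background on any array.

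Latency and activation genes hold latent TGF-beta or release it, and they were split. With LPS against medium 4 of 15 were higher and 2 lower. Itgav, the alpha chain of the integrins that release TGF-beta, was 3.70-fold higher and Furin, the protease that cuts its precursor, 3.34-fold. Lrrc32, which holds latent TGF-beta on the cell surface, and Mmp14 followed outside the rule, with 1.32 and 1.21 log2 units. Mmp9 was 3.30-fold and Itgb5 2.51-fold lower. Between LPS with LA and LPS these were turned round, with Mmp9 6.59-fold and Itgb5 3.73-fold higher, while 6 genes were lower, led by the latent TGF-beta binding protein Ltbp1 (8.69-fold) and Itgav (5.83-fold). Ltbp1 was also 4.67-fold lower with LA than in medium. On both arrays with LA its level was -3.70 log2 units, near the lowest detected there (-4.06). Its differences shrank to as little as -1.09 for LPS with LA minus LPS and -0.67 for LA minus medium over the alternatives. Nrros, which anchors latent TGF-beta on myeloid cells, had levels of 4.36, 4.42, 4.32 and 3.86 log2 units with LPS and LA, LPS, LA and medium. Itgb8, the beta chain through which dendritic cells are known to release TGF-beta, was above background on the LA array only. There it was at least 3.95-fold above medium, and LPS with LA was at least 4.38-fold below it. Over the alternatives these bounds shrank to as little as 0.64 and -0.61 log2 units. Itgb8 was the 1 gene of the 10 lists at least 2-fold apart between LPS with LA and LA.

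Of 9 other receptors of the superfamily described, 0 were 2-fold higher or lower with LPS than in medium, a count near what the shares over all genes (9.07% higher, 8.56% lower) give for so few. With LPS and LA against LPS 1 was higher, the activin receptor Acvr2b (2.42-fold), and 0 were lower. The other probe of Acvr2b was past 2-fold with LPS against medium too (-1.55 log2 units). Whether they differ in this from Tgfbr1 and Tgfbr2 was not tested. The co-receptor Tgfbr3, outside the rule, had levels of -1.50, -1.35, -1.34 and -1.84 log2 units with LPS and LA, LPS, LA and medium.

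Of 10 SMADs and genes close to the receptors 0 were higher and 1 was lower with LPS against medium, Tab1, the partner of the kinase TAK1 (2.80-fold). Relative to LPS, in LPS with LA Tab1 was 2.92-fold higher and Smad1, which acts downstream of BMP receptors, 2.03-fold lower. The brightest probe of Usp15 gave 0.47 log2 units for LPS minus medium and -0.73 for LPS with LA minus LPS. Other probes of Usp15 gave 1.12, 1.14 and 0.64 for the first and -1.40, -1.16 and -0.63 for the second, so these counts depend on the probe taken. Smad2 had levels of 0.17, 1.04, 0.30 and 0.89 log2 units with LPS and LA, LPS, LA and medium. Its partner Smad3 had -2.35, -2.66, -3.08 and -3.46, and was 2.15-fold higher with LPS and LA than in medium. The medium level of Smad3 was near the lowest detected there (-3.91), and the difference shrank to 0.29 log2 units under an alternative. The common partner Smad4 had 1.33, 1.95, 1.32 and 1.76 on its brightest probe. On both probes of Smad2 and on that of Smad4 both arrays with LA lay below both without it, by less than 2-fold. The 4 other probes of Smad4 went different ways, with LPS with LA minus LPS from -0.13 to 0.74 log2 units.

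Among inhibitors of the pathway 4 of 17 were higher and 0 lower with LPS against medium: the corepressor Tgif2 (3.06-fold, with 0.62 and 0.85 log2 units on its other probes), the activin binder Fst (at least 2.56-fold) and, outside the rule, Skil and Pmepa1 with 1.13 and 1.07 log2 units. In LPS with LA against LPS the corepressor Ski was 3.33-fold and Fstl3 2.74-fold higher, and 3 genes were lower, among them Skil (2.87-fold) and Fst (at least 2.83-fold). The inhibitory Smad7 had levels of -1.53, -2.48, -1.99 and -1.51 log2 units with LPS and LA, LPS, LA and medium. It was lowest with LPS, just under 2-fold below medium.

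Several of the TGF-beta response genes are known to answer to other signals too. Of 13 described, 5 were higher and 0 lower with LPS than in medium (median 0.45). Among them was the cell cycle inhibitor Cdkn1a with 3.75-fold, whose other probe gave 0.20 log2 units. Relative to LPS, with LPS and LA 0 of 14 were higher and 4 lower, among them Cdkn1a (7.64-fold), whose other probe gave -0.69 log2 units. Against medium LA was 4.17-fold lower for Klf10, an early TGF-beta response gene, and 2.33-fold lower for Cdkn1a (-0.77 log2 units on the other probe). Itgae was not above background on any array.

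Facts of the arrays that touch these values are few. Between 56.5% and 64.1% of spots were well above background, LPS being the lowest. The 7 inflammatory genes that check the stimulation were all higher with LPS than in medium and all lower with LPS and LA than with LPS. Dendritic cell markers were above background for 12 or 13 of 14 on every array, with Xcr1 not above background on any. Their summed level, as multiples of the 75th percentile, was 269 with LPS and LA, 359.6 with LPS, 279 with LA and 341 in medium. The members of this list were split, with 3 of 13 described higher and 5 lower with LPS and LA than with LPS. For this and the marker counts below, 12% of all genes were higher and 12.8% lower in that comparison. Neutrophil and precursor markers were above background for 12 of 12 on every array, with a sum of 908, 765, 879 and 675. Of these, 7 were higher and 0 lower with LPS and LA than with LPS. Mast cell, basophil and eosinophil markers had sums of 126, 96.9, 118 and 64.8. Macrophage and monocyte markers had 125, 191, 133 and 158, with 1 of 11 described higher and 2 lower with LPS and LA than with LPS. Both granulocyte lists were highest on the 2 arrays with LA, and their part in the levels of the 6 genes was not tested. Sums of T and NK, B, erythroid and stromal markers were at most 4.04. Above background on an array were 7 to 9 of 10 T and NK markers (Cd3e and Lck on all), 2 to 5 of 8 B cell markers, 5 or 6 of 7 erythroid markers and 6 or 7 of 10 stromal and endothelial markers (Col1a2 and Pdgfrb on all). Ncr1, Ms4a1, Cdh5 and Tek were not above background on any array. The endothelial marker Kdr, singled out after its values were seen, was 18.2-fold lower with LPS and LA than with LPS and 5.25-fold higher with LPS than in medium. The part of these lists in the levels of the 6 genes was not tested either.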

How the data were processed

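Single-colour arrays were analysed, 1 per group. Per the file headers, the deposited intensity came from Feature Extraction 12.0.3.1 as a processed signal. It is linear, corrected for background and unscaled between arrays. Version 11.5.1.1 is named in the submitters' processing notes. The deposited flags mark spots well above background. Control spots and outlier spots were left out (0 were saturated). A level is log2 of the intensity minus the log2 of the array's 75th percentile (146 for LPS with LA, 174 for LPS, 158 for LA and 179 for medium), over 59305 spots that were not controls. A table of the authors holds intensities of 31529 spots, which are proportional to the processed signal with 1 factor for each array (9.30, 5.82, 8.38 and 6.67), with column medians of 1189, 873, 1164 and 1038. It is linear and not centred, and how its factors were set is not given in the sources used here.

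Probes were named from a RefSeq table (GRCm38.p6) through their transcript identifier. Of 56605 probes 33767 found 1 symbol, 0 found several and 22838 found none. The array design names mm9, and coordinates printed are those of the promoter table. A gene is represented by the probe that is brightest on average, and for the differences printed the other probes are given where they lie on another side of 2-fold. Counts rest on the brightest probe alone. Some counted genes, Sp1 and Itgb1 among them, had another probe past 2-fold where the brightest was not. A bound is the bright value against the dim array's value or its lowest detected signal, whichever is higher. With 1 array per group no test was possible. The procedure was run on simulated data with changes beyond the 2-fold cut put into bright genes only. That checks the code and not how reliable the differences are. The members and lists were chosen with earlier results of these data known. Named genes were the 6 members, 10 signalling genes whatever their values, up to 2 highest and 2 lowest genes past 2-fold per list and comparison, and the 3 genes most like a member that varied. Genes named outside this rule, after their values were seen, are marked or complete a count. Some genes counted in the lists are not reported here by name. Of 225 list genes, 224 had a probe. Alternatives were normexp (offset 50, on the median spot signal), quantile normalization, other scalings, other filters, the mean of all probes and the authors' table. R 4.3.3 with limma 3.58.1 and Python 3.11.15 with numpy 2.4.6 and pandas 2.3.3 were used.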

Additional observations from a re-analysis of the deposited data

How the results depend on the processing

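Of the 6 member differences of at least 2-fold, all kept their sign under the alternatives, and 39 of 44 alternative values stayed at least 2-fold. No named difference past 2-fold changed sign. No alternative could give Il10 a value in the authors' table or with only probes above background on all arrays, since it was detected on 1 array. There, members at least 2-fold higher in LPS against medium came to 0, and members lower in LPS with LA against LPS to 0. With the mean of all probes, median scaling, normexp or quantile normalization, 1 member was lower in LPS against medium. With normexp, 1 was higher in LPS with LA against LPS. Without the filter on dim probes, 1 was higher (Il10, not well above background on either array) in LPS with LA set against LA and against medium. The Il10 bound came to 2.02 log2 units in LPS against medium and -1.85 in LPS with LA against LPS with normexp, whose offset raises dim values. The other alternatives left the member counts as given.

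The median of all genes moved by -0.24 log2 units (LPS against medium), 0.43 (LPS with LA against LPS), 0.15 (LA against medium) and 0.18 (both agents against medium) in the authors' table. With the 75th percentile taken over probes detected on all arrays it moved by -0.18 and 0.28 in the first 2, and with median scaling by -0.11 in LPS with LA against LPS. In LPS against medium, 30.1% of the calls were higher in the authors' table, 36.4% with that percentile and 68.1% with normexp, against 51.4% as reported. In LPS with LA against LPS these were 76.7%, 67.5% and 37.0%, against 48.4%. Normexp called 739 higher and 346 lower in LPS against medium, against 1418 and 1339. Of 75 named pathway differences of at least 2-fold, 35 stayed so under every alternative. Of 18 values from their other probes, 11 were at least 2-fold the same way, 7 smaller and 0 opposite. Bounds of pathway genes shrank under some alternatives. In LPS against medium they reached 0.96 log2 units for Map3k8 and 0.47 for Fst. In LPS with LA against LPS they reached -0.36 for Fst and -0.23 for Il19. In LA against medium they reached 0.64 for Itgb8, 0.28 for Bmp6 and -0.35 for Lrrc32. Map3k8 reached 0.42 in LPS with LA against medium. These alternatives for pathway genes were chosen after seeing the data. No paired analysis was possible because each group has 1 array.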

Other observations

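In LPS with LA against medium, of 8 genes of IL-10 receptor signalling, 2 were higher and 0 lower, Socs3 by 3.22-fold and Socs1 by 3.06-fold. Under some alternatives these shrank to as little as 1.22 and 0.61 log2 units. Of 12 IL-10 response genes, 0 were higher and 5 lower, led by Ddit4 (6.03-fold) and Il1r2 (4.64-fold). Hmox1, Nfil3 and Etv3 were the others, at -2.09, -1.42 and -1.13 log2 units. Among the regulators of Il10, Map3k8 was at least 2.27-fold and Crtc3 2.14-fold higher, and Nfil3 2.68-fold and Bhlhe40 2.25-fold lower. In the latency list Ltbp1 was 4.65-fold and Mmp14 2.25-fold lower. Under some alternatives these shrank to as little as -0.60 and -0.53 log2 units.

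Among inhibitors of TGF-beta signalling 3 of 16 were higher and 0 lower in LPS with LA against medium. They were Fstl3 (2.12-fold), Smad6 (2.03-fold) and, outside the naming rule, Ski, at the 2-fold line. Of 14 TGF-beta response genes 1 was higher, Id1 (2.62-fold), and 2 lower, Klf10 (3.81-fold) and Cdkn1a (2.04-fold, with -0.49 log2 units on its other probe). Over all 16175 genes of that comparison 4.01% were higher and 5.04% lower. LA alone left 1 ligand, Bmp6, at least 2.08-fold above medium and 1 receptor, Bmpr1a, 2.09-fold below it (-0.23 log2 units on its other probe), and Lrrc32 at least 2.73-fold below.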
